A study of Mus musculus with 2 samples.

Results

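Small heat shock proteins and their partner Bag3 were read in mouse heart by long-read RNA sequencing, in which a read can run over the whole of a spliced transcript. The 8 genes were taken by name: Cryab, Hspb1, Hspb2, Hspb3, Hspb6, Hspb7, Hspb8 and Bag3, out of 15848 annotated genes with at least 1 read in either library. Both libraries belong to 1 group, the heart of B6CASTF1/J female mice aged 2 months, a first-generation hybrid of B6 and CAST mice, with no treatment and no altered allele named in the labels (2 µg of total RNA went into each library). The sample descriptions number the animals apart, but the library text names the same animal for both and both carry 1 donor record, so whether 2 mice were used could not be settled. Every p-value below therefore sets the reads of 1 library against those of the other and measures counting error, not the spread between mice.

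Small heat shock proteins share a conserved core, the alpha-crystallin domain, form oligomers, and bind unfolding proteins without using ATP. BAG3 is a co-chaperone that joins small heat shock proteins, HSPB8 above all, to HSP70 and leads damaged proteins of the muscle Z-disc to autophagy. In heart and skeletal muscle several of these genes are known as abundant, and mutations in CRYAB, HSPB8 or BAG3 cause human muscle and heart disease.

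The libraries held 905154 reads (replicate 1) and 745375 reads (replicate 2). Reads on annotated genes, 859191 and 707758, are the base of the levels used here (CPM, reads per 1000000 reads on annotated genes). A single read thus equals 1.16 CPM in the first library and 1.41 in the second. A molecule read from end to end is counted once whatever its length, so the CPM were not divided by length, and whether length affects which molecules were read was not tested. All 6 cardiomyocyte markers had reads (summed level 41456 and 44837 CPM, of which Myh6 gave 30444 and 34817). Of the 6 skeletal muscle markers, 3 had reads, Ckm (7338 and 7374 CPM) and Acta1 (442 and 446 CPM), which heart muscle also expresses, and Mylpf (1 and 0 reads), while Tnnt3, Myh4 and Myh1 had none. Of the 4 lens markers, Cryaa, Crygd and Cryba1 had none and Bfsp1 had 1 read. Summed levels of markers of other cells of the heart were: fibroblast 776 and 702 CPM, endothelial 210 and 239, smooth muscle 177 and 151, macrophage 78.0 and 91.8, adipocyte 122 and 55.1, with 4 of 4 genes read in each list. Red cell globins summed to 31814 and 29122 CPM.

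The sequences below show how these genes relate and where their transcripts are joined. All come from the reference (GENCODE M21 transcripts, build mm10), written 5′ to 3′, and not from the reads. Across the 7 small heat shock genes, the aligned coding bases were 61.6% to 69.1% identical in the 21 pairwise alignments (median 64.8%). Positions with a gap in either sequence were left out, so these are not shares of the whole coding sequences. By this measure the closest pair was Cryab and Hspb1, over 511 aligned bases, with coding lengths of 528 and 630. The places where introns were removed were compared base by base, without alignment. A count of matches there depends on the place of the intron as well as on the sequence. A low count therefore does not show that the sequences are unlike. In each window the lower-case letters are the last 30 coding bases of an exon and the capitals the first 30 of the next exon. The join of exons 2 and 3 matched at 44 of 60 bases between Cryab and Hspb6, whose second exons are both 123 bases long.
Cryab exon 2 to 3: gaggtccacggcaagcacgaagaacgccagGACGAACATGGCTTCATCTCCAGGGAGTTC
Hspb6 exon 2 to 3: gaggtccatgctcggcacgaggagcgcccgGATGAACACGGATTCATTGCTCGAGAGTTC
Hspb1 and Hspb8 have second exons of 64 bases each, and their joins of exons 1 and 2 matched at 42 of 60 bases.
Hspb1 exon 1 to 2: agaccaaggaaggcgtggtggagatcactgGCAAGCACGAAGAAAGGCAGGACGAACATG
Hspb8 exon 1 to 2: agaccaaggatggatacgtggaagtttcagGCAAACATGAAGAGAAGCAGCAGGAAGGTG
Across all 83 comparisons between joins of different genes, Bag3 included, the median was 17 matching bases (28.3%). The joins of exons 2 and 3 of Hspb1 and Hspb8 matched at 37 bases, the third highest count, and the fourth was 25.

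Cryab, which encodes alpha-B-crystallin, a chaperone of desmin and titin, was the most abundant of the 8 genes (chr9:50751325-50756636, plus strand). It had 1066 reads in replicate 1 and 766 in replicate 2, or 1241 and 1082 CPM, a mean of 1162 ± 112 CPM (SD, n = 2), rank 115 of 15848. Hspb8 (chr5:116408491-116422864, minus strand), the small heat shock protein that pairs with BAG3, followed with 784 and 571 reads, 912 and 807 CPM, a mean of 860 ± 74.8 CPM (SD, n = 2), rank 155. These 2 genes together took 61.5% and 61.1% of the reads of all 8.

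A middle tier of 4 genes lay between 211 and 384 CPM in every library. Hspb6 (chr7:30552178-30555443, plus strand) encodes Hsp20, a target of protein kinase A in heart and smooth muscle. It had 298 and 272 reads, 347 and 384 CPM, a mean of 366 ± 26.5 CPM (SD, n = 2). Bag3 (chr7:128523616-128546981, plus strand) had 282 and 196 reads, 328 and 277 CPM, a mean of 303 ± 36.3 CPM (SD, n = 2). Hspb7 (chr4:141420779-141425311, plus strand) encodes a small heat shock protein known for its heart expression and its binding to filamin C. Its 238 and 154 reads gave 277 and 218 CPM, a mean of 247 ± 42.0 CPM (SD, n = 2). Hspb1 (chr5:135887919-135889563, plus strand), the gene of mouse Hsp25, had 223 and 149 reads, 260 and 211 CPM, a mean of 235 ± 34.7 CPM (SD, n = 2).

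Hspb2 and Hspb3, whose proteins are known to assemble with each other in muscle, stood far apart. Hspb2 (chr9:50751078-50752354, minus strand) had 112 and 79 reads, 130 and 112 CPM, a mean of 121 ± 13.2 CPM (SD, n = 2), rank 1331. Hspb3 (chr13:113662896-113663676, minus strand) had 7 reads in replicate 1 and 1 in replicate 2, or 8.15 CPM (exact Poisson 95% interval 3.28 to 16.8) and 1.41 CPM (0.0358 to 7.87). The lower of the 2 values of Hspb2 was above the upper limit of Hspb3 in either library. In bulk tissue such a difference in level cannot be split into fewer cells with the RNA and less RNA per cell.

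**Figure D1:**
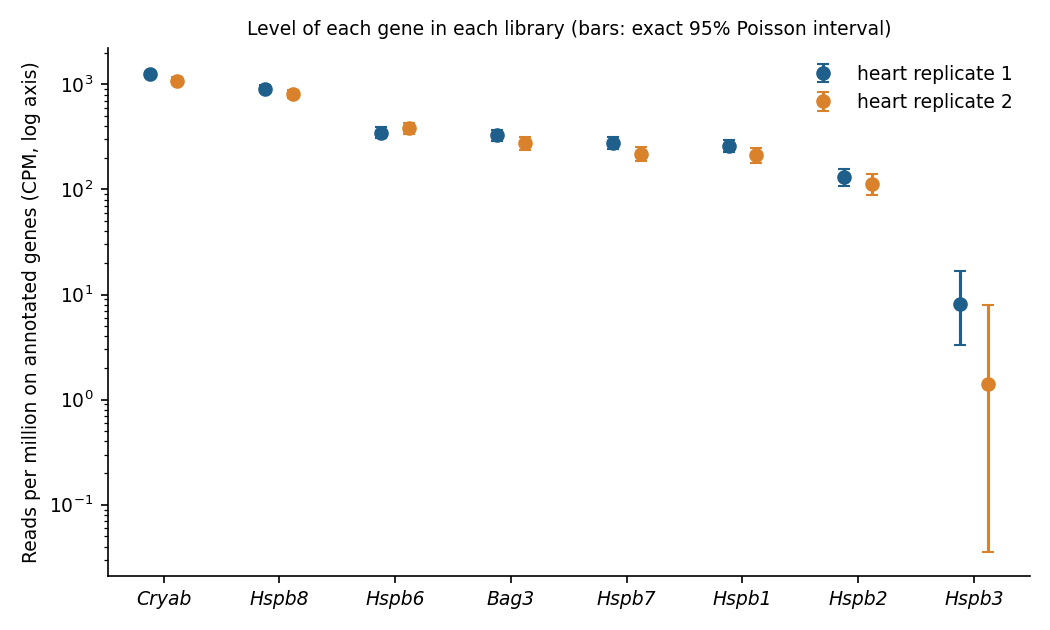
Level of the 8 genes in each library in CPM (log axis), points for the libraries and bars for the exact 95% Poisson interval of each count. Cryab and Hspb8 lie highest, Hspb6, Bag3, Hspb7 and Hspb1 lie between 211 and 384 CPM, and Hspb3 lies lowest at 8.15 and 1.41 CPM.

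In the order by mean level, neighbours separated in both libraries except for Bag3 with Hspb7 and Hspb7 with Hspb1, whose values overlapped. The gap between Hspb6 and Bag3 was narrow, with the lower Hspb6 value at 347 CPM and the higher Bag3 value at 328. Counting only reads on annotated models, over the reads on such models, placed Hspb1 above Bag3 and Hspb7 (307, 219 and 217 CPM on average), both of which have many incomplete reads. Small heat shock reads outnumbered Bag3 reads 9.67 to 1 in replicate 1 and 10.2 to 1 in replicate 2. For Hspb8 alone the ratio to Bag3 was 2.78 and 2.91, and for Hspb6 it was 1.06 and 1.39. The ratio of Cryab to Hspb8 was 1.36 and 1.34.

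The genes with the nearest levels in both libraries, by distance in log2(CPM + 1) over these 2 libraries, give a sense of scale. For Cryab they were Ndufab1 (1213 and 1099 CPM), the acyl carrier protein of mitochondria, and Eif1, a translation initiation factor (1202 and 1096). For Hspb8 they were Ndufs3, a complex I subunit, and S100a1, a calcium sensor of heart muscle. Those of Hspb6 were Bag1 and Ppp1cb, those of Bag3 Klhdc2 and Got2, those of Hspb7 Smdt1 and Atp6v0c, those of Hspb1 Atp6v0c and Gm10175, and those of Hspb2 Actr3 and Calcoco1.

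The count of Hspb1 carries an uncertainty. Hsp25-ps1, an intronless processed pseudogene (chr13:45078498-45079127, minus strand), holds a copy of the entire 630-base coding sequence that matches Hspb1 at 626 bases (99.4%). The 4 differences, Hspb1 base first and counted from 1 at the A of its start codon, are C6T, G559A, T561C and T609C. The stretch with 2 of them is shown, with the differing bases in capitals.
Hspb1 coding bases 544 to 573: gagatcaccattccgGtTactttcgaggcc
Hsp25-ps1, same bases: gagatcaccattccgAtCactttcgaggcc
The pseudogene was credited with 55 and 26 reads (64.0 and 36.7 CPM), all on its 1 annotated single-exon model, against 223 and 149 for Hspb1. Had those reads been added, Hspb1 would stand at 324 and 247 CPM (mean 285 ± 54.0, SD, n = 2), above Hspb7 and below Bag3 by mean. Whether these reads came from the pseudogene or from Hspb1 was not tested. The pseudogene copy covers 69.8% of the Hspb1 transcript. A search of all annotated transcripts for 95% identity over 80% of a leading transcript found 0 genes, and by that rule alone Hspb1 too would have passed as having no near copy. The 100% match of Hspb2 to a Cryab transcript, over 32.6% of the Hspb2 length, is the stretch where a rare upstream exon of Cryab lies across Hspb2 on the opposite strand.

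For the 7 genes with at least 10 reads, the level in replicate 2 was between 0.786 and 1.11 times that in replicate 1. Hspb6 was higher in replicate 2 (1.11-fold, 95% interval 0.937 to 1.31) and the other 6 genes with at least 10 reads were lower there. Cryab stood at 0.872 of its replicate 1 level (0.794 to 0.958), Hspb8 at 0.884 (0.792 to 0.986), and Hspb2 at 0.856 (0.634 to 1.15). Bag3 stood at 0.844 (0.700 to 1.02), Hspb1 at 0.811 (0.655 to 1.00) and Hspb7 at 0.786 (0.637 to 0.966). None of the 7 intervals reached a 2-fold change in either direction. Over all 8 genes, reads amounted to 0.350% and 0.309% of those on annotated genes, with Wilson 95% intervals of 0.338% to 0.363% and 0.296% to 0.322%.

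**Figure D2:**
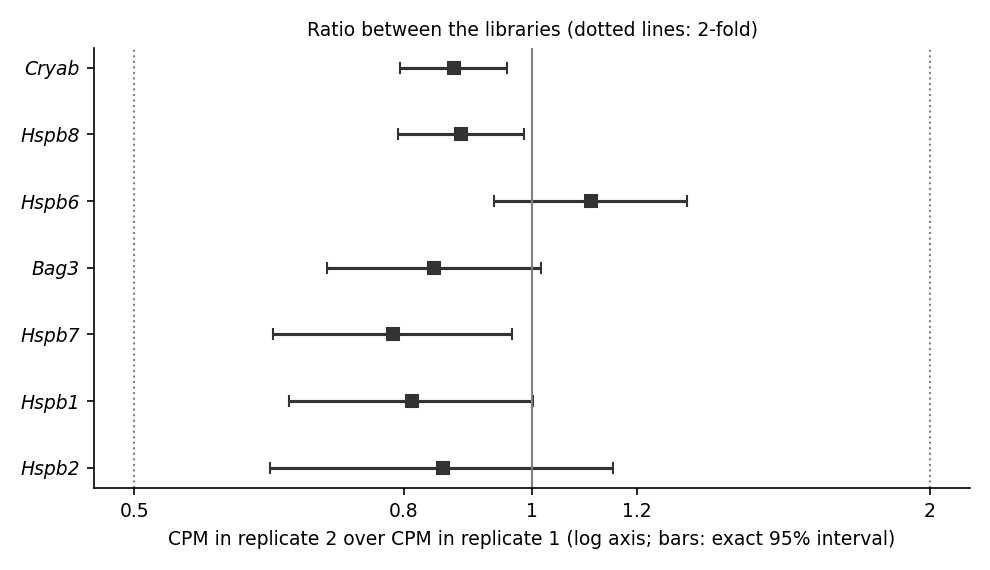
CPM in replicate 2 over CPM in replicate 1 (log axis) for the 7 genes with at least 10 reads, squares for the ratio and bars for its exact 95% interval. Hspb6 alone lies above 1, and every interval stays within the dotted 2-fold lines.

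A two-sided exact conditional binomial test over 9334 genes with at least 10 reads, with Benjamini-Hochberg adjustment over all of them, called 30 genes at an adjusted p below 0.05 and at least a 2-fold difference (0.321% of those tested; 14 higher and 16 lower in replicate 2). Of the 7 tested small heat shock and Bag3 genes it called 0. Unadjusted p was below 0.05 for 4 of them, Cryab, Hspb7, Hspb8 and Hspb1, beside 796 of the 9334 genes (8.53%), and the smallest adjusted p, that of Cryab, was 0.179. The edgeR exact test with a preset coefficient of variation of 0.1 or 0.2 called 0 of the 7 as well. The adjusted p of Cryab depended on the scaling, in the same exact test: with edgeR's TMM factors it was 0.0363 and with DESeq2 size factors 0.00576, at log2 ratios of -0.24 and -0.27 in place of -0.20, still below 2-fold. The median log2 ratio of the 7 genes was -0.22, beside 0.05 for all genes tested. Of the 4 adipocyte markers, Cfd was called lower in replicate 2 (95.4 and 41.0 CPM). Adipoq (11.6 and 2.83 CPM) and Cidec (9.31 and 9.89) did not pass, Plin1 had too few reads to be tested, and the part of these markers in the ratios was not tested. Hspb3 had too few reads to be tested.

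The share of reads assigned to annotated transcripts, by their splice junctions, set Bag3 and Hspb7 apart from the other genes. Cryab (98.6% and 99.2%), Hspb1 (99.1% and 99.3%) and Hspb8 (96.9% and 96.0%) were read almost wholly as annotated transcripts. Hspb2 (93.8% and 91.1%) and Hspb6 (90.3% and 91.9%) came next. Hspb7 stood at 67.2% and 65.6%, a mean of 66.4% ± 1.16 (SD, n = 2), and Bag3 at 52.8% and 57.1%, a mean of 55.0% ± 3.04 (SD, n = 2). All 8 reads of Hspb3, a single-exon gene, were on its annotated model. For all 7 genes that could be tested, one transcript held at least 95% of the reads on annotated models, so none entered the test of isoform use, which compared 1037 other genes and called 1 (0.0964%).

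**Figure D3:**
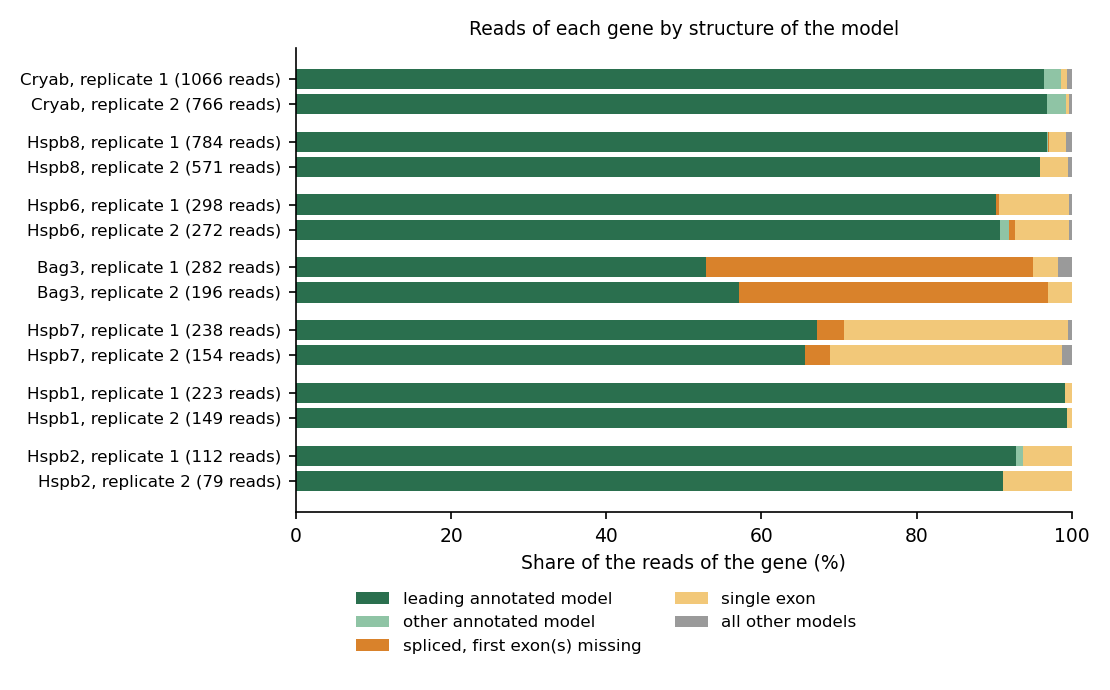
Share of the reads of each gene (%) by structure of the model they were assigned to, with a bar for each library and the number of reads beside it. Bag3 is set apart by spliced models that lack the first exons (42.2% and 39.8%) and Hspb7 by single-exon models (29.0% and 29.9%).

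In Bag3 most reads off the full transcript shared 1 structure. Its only annotated transcript has 4 exons and 2562 bases, of which 1734 are coding. A model made of exons 3 and 4 alone, 1794 bases long, took 108 of 282 reads in replicate 1 (38.3%) and 74 of 196 in replicate 2 (37.8%). These were 81.2% of the 133 and 88.1% of the 84 reads that were not on the annotated transcript. A 3-exon model that keeps exons 2 to 4, with its first exon extended into the intron before, took 11 and 4 reads, and the last exon alone 9 and 6. Exons 3 and 4 hold 1209 of the coding bases (69.7%), so reads of that model lack the start of the coding sequence. The joins on either side of the point where these reads part from the full transcript are shown, with capitals for the exon that follows.
Bag3 exon 2 to 3, absent from the model of exons 3 and 4: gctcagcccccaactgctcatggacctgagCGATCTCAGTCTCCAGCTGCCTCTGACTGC
Bag3 exon 3 to 4, present in that model: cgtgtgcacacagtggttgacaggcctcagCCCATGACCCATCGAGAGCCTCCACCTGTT
Reads assigned to the annotated transcript, whose model holds the whole coding span, numbered 149 and 112. Whether each of these reads reaches back to the start codon in exon 1 was not tested. Models that join annotated exons in an unannotated combination, skipping inner exons, had 5 reads in replicate 1 and 0 of 196 in replicate 2.

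In Hspb7 the incomplete reads were of another form. The annotated transcript has 3 exons and 2769 bases with 510 coding bases, and 69 of 238 reads in replicate 1 (29.0%) and 46 of 154 in replicate 2 (29.9%) lay in the last exon alone, which is 1433 bases long and holds 180 coding bases (35.3%). Only 8 and 5 reads kept exons 2 and 3 without exon 1. The join that single-exon reads lack is this one.
Hspb7 exon 2 to 3: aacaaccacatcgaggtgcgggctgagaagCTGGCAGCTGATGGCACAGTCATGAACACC
The ends of a model, annotated or incomplete, need not be those of each of its reads, so where each read begins is not known.

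The share on annotated models was set beside that of genes with leading transcripts of like length. Among 1123 genes with a leading transcript of 2000 to 3000 bases and enough reads in both libraries, the median share on annotated models was 83.9% and the middle 50% of genes ran from 69.8% to 91.5%, so Bag3 and Hspb7 both lay below the lower quartile. In the class of 1000 to 2000 bases (1155 genes, median 88.5%, quartiles 73.6% and 94.8%), Hspb8 lay above the upper quartile and Hspb6 within the quartiles. Cryab and Hspb1, at 946 and 903 bases, lay above the upper quartile of the shortest class (531 genes, median 94.7%, quartiles 85.0% and 98.4%), and Hspb2, at 773 bases, within it. The Wilson 95% intervals of Hspb7 were 61.0% to 72.9% and 57.8% to 72.6%, which include the lower quartile of its class. Those of Cryab and Hspb1 in both libraries, and of Hspb8 and Hspb2 in replicate 2, also included a quartile of their class. Between the libraries the shares did not pass the test: Fisher's exact test over 4651 genes with at least 20 reads in each library called 6 (0.129%), and of these 7 genes it called 0, with 0 at an unadjusted p below 0.05. The largest gap, that of Bag3, was 4.31 percentage points.

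**Figure D4:**
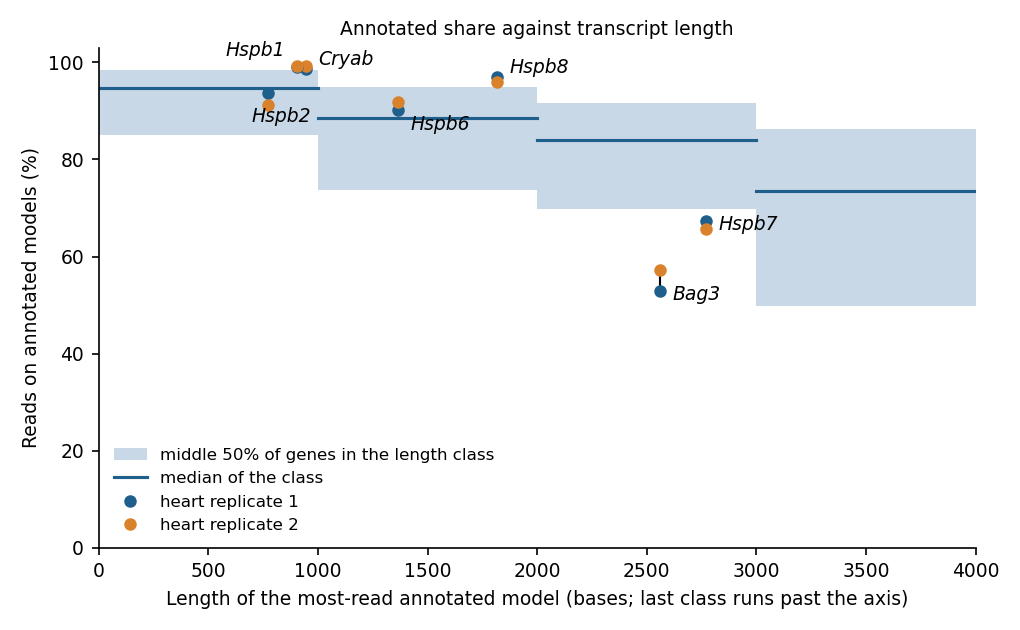
Share of reads on annotated models (%) against the length of the most-read annotated transcript (bases), points for each library, with the median and the middle 50% of all genes in each length class. Bag3 and Hspb7 lie below the shaded range of their class, and Cryab, Hspb1 and Hspb8 above theirs.

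Few reads of these genes were on models with unannotated splicing, and the share over all annotated genes is not given here for comparison. Hspb3, with a single exon, has no annotated splicing. Of 14 spliced forms classed by a new combination of known splice sites or by an unannotated splice site, 1 appeared in both libraries. Such forms took 16 of 3010 reads in replicate 1 (0.532%) and 7 of 2188 in replicate 2 (0.320%). At most 3 reads fell on a model. The shared form belonged to Cryab and joins exon 2 to exon 3 from a donor 2 bases beyond the annotated one, with 3 and 1 reads. Left out of these counts was a 2-exon form of Hspb8 classed as genomic, which also appeared in both libraries, with 2 and 1 reads. Single-exon reads inside Hspb6 made up 9.06% and 6.99% of its reads, inside Hspb2 6.25% and 8.86%, and inside Hspb8 2.17% and 3.50%. For Hspb6 the model lay inside the last exon in replicate 1 (27 reads) but ran across the introns in replicate 2 (19 reads). In Hspb2, an annotated second form that skips 282 coding bases (94 codons, in frame) by using a later acceptor had 1 of the 112 reads in replicate 1 and none of the 79 in replicate 2. The second annotated transcript of Hspb1 had none in either library.

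Cryab and Hspb2 lie head to head and are read in opposite directions from starts 614 bases apart, taking the most-read transcript of each. Of the reads of the pair, Hspb2 had 9.51% and 9.35%, with Wilson 95% intervals of 7.96% to 11.3% and 7.57% to 11.5%, a mean of 9.43% ± 0.112 (SD, n = 2). So Cryab outnumbered Hspb2 9.52 to 1 and 9.70 to 1. Across 368 such pairs with starts within 1000 bases, the median distance was 149 bases and the gene with fewer reads held a median of 27.3% of the reads, so this pair was wider apart and less even than the median pair. Fisher's exact test of the split between libraries gave p = 0.939 for Cryab and Hspb2, and called 0 of the 368 pairs (percent called 0), with 26 at an unadjusted p below 0.05.

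**Figure D5:**
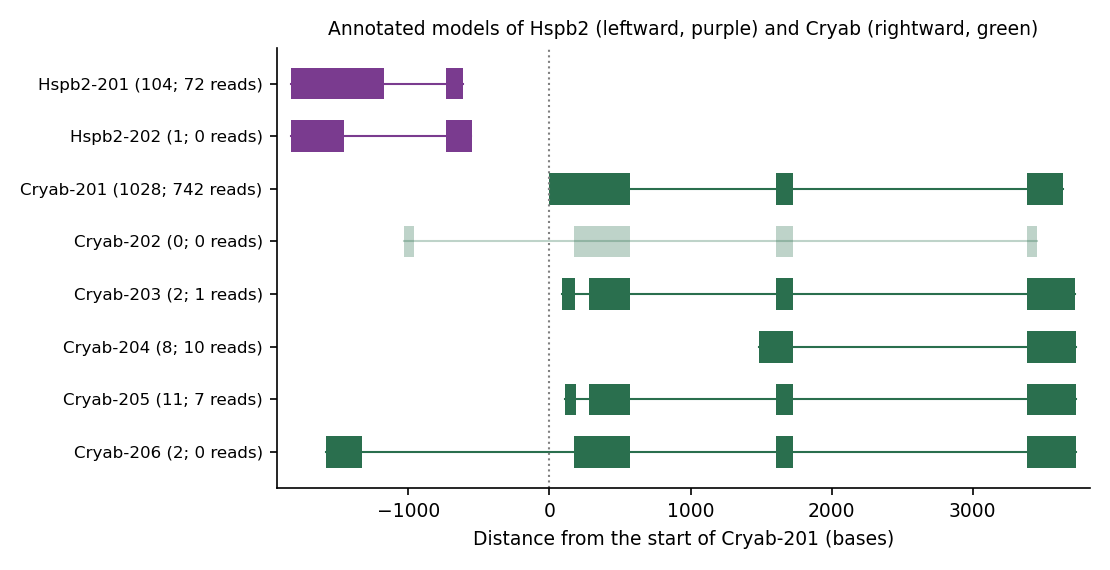
Annotated transcripts of Hspb2 and Cryab by distance from the start of Cryab-201 (bases), boxes for exons and lines for introns, with reads in replicate 1 and replicate 2 beside each name. Transcript Cryab-201 holds 1028 and 742 reads, and the transcripts that begin inside Hspb2 hold 2 reads in all.

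Within Cryab, transcript Cryab-201 took 96.4% and 96.9% of the reads. Cryab-205, which has a separate short first exon and the same coding span, had 11 and 7 reads, and Cryab-204, annotated as a retained intron, 8 and 10. Transcripts that begin inside Hspb2 had 2 reads in replicate 1 (Cryab-206), and an unannotated form with that first exon had 1 read in replicate 2. Reads on the opposite strand of the other genes were few: 3 and 3 in an intron of Bag3, 1 each across Hspb8, Hspb1 and Hspb3 in a single library. Lin37, whose end overlaps that of Hspb6 by 3 to 5 bases, had 6 reads in replicate 1.

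The 250 bases before the RefSeq start (build GRCm38.p6) were searched in the 7 promoters listed for 6 of these genes, Hspb6 having 2. Cryab and Hspb2 had no listed promoter and were not searched. The search covered both strands for the paired core of the heat shock element, written GAANNTTC or TTCNNGAA, which is the sequence that heat shock factor 1 binds in repeats. GAANNTTC occurred in the promoters of Hspb1, Hspb3 and Hspb6 (second promoter), 3 of 7, beside 6.69% of all 32851 promoters, and TTCNNGAA in 0 of 7, beside 7.17%. The stretches are printed with the matches in capitals.
Hspb1, chr5:135887778-135887853, plus strand: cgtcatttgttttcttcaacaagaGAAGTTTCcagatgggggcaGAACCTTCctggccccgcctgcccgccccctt
Hspb6, chr7:30553157-30553212, plus strand: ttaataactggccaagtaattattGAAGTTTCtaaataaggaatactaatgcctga
Hspb3, chr13:113663869-113663924, minus strand: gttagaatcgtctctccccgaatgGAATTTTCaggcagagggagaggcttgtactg
The matches begin 117 and 97 bases before the start of Hspb1, 120 before that of Hspb6 and 224 before that of Hspb3. Matches thus lay before Hspb3, the lowest of the 8 genes, and before Hspb1 and Hspb6 of the middle tier. None lay in this window before Hspb8, the second highest, nor before Bag3 or Hspb7 of the middle tier. Whether a match goes with the level was not tested. TATAAA was found before Hspb3 and Hspb6 (12.4% of all promoters), the latter inside the first exon of the GENCODE transcript, which begins 33 bases further upstream, and CCAAT in the first promoter of Hspb6 (4 matches; 33.9% of all promoters). A match is a run of letters, not a shown binding site.

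Other genes of the chaperone network were taken from lists of 64 genes, of which 61 had reads and 60 could be tested. The exact test called 0 of the 60, with 7 at an unadjusted p below 0.05 (8.53% of all genes tested were), and edgeR's exact test at either preset variation called 0. Among all genes tested, 5147 of 9334 were higher in replicate 2. Of the remaining small heat shock genes, Cryaa, Hspb9 and Odf1 had no reads, and Hspb11, better known as an intraflagellar transport gene, had 9 and 4.

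Hspa8, the constitutive HSP70 and the partner to which BAG3 hands over its clients, had 1859 and 1519 CPM, a mean of 1689 ± 240 CPM (SD, n = 2). Its adjusted p was 7.11e-05 by the exact binomial test at a log2 ratio of -0.29, short of 2-fold, and it was the only one of the 60 with an adjusted p below 0.05. Hsph1, a nucleotide exchange factor (132 and 79.1 CPM), and Hspa4 (97.8 and 109 CPM) followed in the HSP70 list. That list leaves out Hspa5 and Hspa9, which had means of 1316 and 919 CPM. The stress-inducible Hspa1a and Hspa1b, named after their values were seen, had 7 and 6 and 10 and 2 reads. These genes are near-identical, so the split between them is uncertain. In the HSP70 list 5 of 12 were higher in replicate 2 and 7 lower (median log2 ratio -0.03).

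HSP40 proteins deliver clients to HSP70. Among the 9 HSP40 genes listed, Dnaja2 (321 ± 4.11 CPM, SD, n = 2), Dnaja4 (216 ± 6.07) and Dnaja1 (120 ± 11.6) were highest, with 2 of 9 higher in replicate 2. Dnaja3, which is not on that list, had 261 and 270 CPM. Hsp90ab1 led the HSP90 list at 1379 ± 74.1 CPM (SD, n = 2), with its co-chaperone Fkbp4 at 613 ± 29.7 and the myosin chaperone Unc45b at 292 ± 36.3, and 10 of 12 were higher in replicate 2 (median log2 ratio 0.10). Of the other BAG genes, Bag1 (364 ± 19.0 CPM, SD, n = 2) had a mean above that of Bag3, while Bag6 (91.5 ± 12.5) and Bag2 (67.2 ± 2.87) were lower. The values of Bag1, 350 and 377 CPM, lay above both values of Bag3.

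In the list of genes that work with BAG3 in selective autophagy, Map1lc3b, which coats autophagosomes, had 574 ± 3.54 CPM (SD, n = 2), the adaptor Ywhae 369 ± 52.4 and Map1lc3a 355 ± 16.5. Named after their values were seen, the ubiquitin ligase Stub1 had 217 ± 15.4 CPM, the receptor Sqstm1 223 ± 17.9 and Synpo2, which tethers BAG3 at the Z-disc, 70.3 ± 7.54. Of these 11 genes 5 were higher in replicate 2. Hsf1, the main heat shock factor, had 73 and 60 reads (85.0 and 84.8 CPM), and Hsf2 4 and 6. Among clients and filament partners, Des, the desmin filament that CRYAB protects, stood at 2683 ± 146 CPM (SD, n = 2) and Actn2 of the Z-disc at 2416 ± 28.7, both above Cryab in each library, and 6 of 8 were higher in replicate 2 (median log2 ratio 0.10).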

How the data were processed

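Per the labels, the samples are 2 heart libraries of 1 group with biological replicate numbers 1 and 2, read as long reads with build mm10. The authors deposited whole-number read counts for each transcript model, not normalized, together with the models' exons. Models are classed per the file headers as annotated or by kind of novelty against GENCODE M21. The sequencer, aligner, versions and filters are not given in the sources used here. Spike-in reads (10926 and 7204) were left out.

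Counts were summed per annotated gene and scaled to CPM. With 2 libraries in 1 group no residual degrees of freedom remained, so the exact tests stand in for edgeR's quasi-likelihood fit, and p-values, Poisson and Wilson intervals cover counting error only. Log2 ratios used 0.5 reads as pseudocount. Divergent pairs were taken between the starts of each gene's most-read annotated transcript, since annotated Cryab transcripts with few or no reads begin inside Hspb2. SD over 2 libraries is given as a description.

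The 8 genes and all lists were chosen with earlier results of these data known. By rule, the genes named besides the 8 were the 2 genes nearest in level to each, the 2 to 4 highest of each list with any called gene, and overlapping neighbours. Among the genes named outside this rule are Hspa5, Hspa9 and Dnaja3, which are on no list. Hspa1a, Hspa1b, Stub1, Sqstm1 and Synpo2, which are on a list but not among its highest, were also named outside it. Alternatives covered scaling (edgeR 4.0.16, DESeq2 1.42.0), read minimums, annotated models only and preset variation. The scripts (Python 3.11.15, SciPy 1.17.1, R 4.3.3) were tested on simulated data.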

Additional observations from a re-analysis of the deposited data

How the results depend on the processing

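No paired analysis was possible because the study has 1 group. The level ratios of the 7 tested genes kept their direction in all 71 recalculations and 0 were called. Recalculations that changed only a read or fold minimum could not alter a ratio. Still, the adjusted p of Cryab by the exact binomial test fell below 0.05 with TMM factors (0.0363) and DESeq2 size factors (0.00576). The 30 genes called between the libraries became 15 on annotated models only, 107 with no fold minimum, and 12 and 4 by edgeR's exact test with a preset variation of 0.1 and 0.2. Genes whose annotated share differed rose from 6 to 112 when incomplete models were counted with annotated ones, and isoform calls from 1 to 4 when all spliced models were compared. Of the 7 genes that entered the level and share tests 0 were called in any of these, as were 0 of Bag3 and Hspb7, the ones that entered the isoform comparison of all spliced models, and the cause was not tested. On annotated models only, with their reads as the base, mean levels were 1515 CPM for Cryab, 1094 for Hspb8, 439.5 for Hspb6, 219 for Bag3, 307 for Hspb1 and 148 for Hspb2. With the pseudogene's reads added, an alternative chosen after seeing the data, Hspb1 had 285 CPM. With 2 libraries, leaving out either gives the value of the other. For Hspb3 this moved the mean of 4.78 CPM to 1.41 without replicate 1 and 8.15 without replicate 2. Depth limits Hspb3: 3 reads, about the one-sided 95% upper limit for a count of 0, equal 3.49 and 4.24 CPM. The Poisson intervals given for Hspb3 are two-sided, so this limit is not on the same footing.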
